A study of Mus musculus with 9 samples.

Results

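The dual-specificity phosphatases (DUSP) that act on MAP kinases were followed in cultured mouse mast cells at rest, after antigen and after antigen with taxinine. The members were picked by gene symbol, and all 10 symbols, Dusp1, Dusp2, Dusp4, Dusp5, Dusp6, Dusp7, Dusp8, Dusp10, Dusp14 and Dusp16, were found among the 15109 genes of the deposited tables. MAP kinases (ERK, JNK and p38) become active when a threonine and a tyrosine of their activation loop are phosphorylated, and these enzymes remove both phosphates. Many of their genes are themselves transcribed in response to MAP kinase activity, so the phosphatases serve as feedback inhibitors of the pathway that induced them. In mast cells, crosslinking of the IgE receptor activates ERK, JNK and p38, which contribute to the transcription of cytokine genes and to the release of lipid mediators. By place and substrate, Dusp1, Dusp2, Dusp4 and Dusp5 encode inducible nuclear enzymes, Dusp6 and Dusp7 cytoplasmic enzymes with a preference for ERK, and Dusp8, Dusp10 and Dusp16 enzymes with a preference for JNK and p38. Dusp14 encodes a small, atypical member that lacks the MAP kinase-binding domain of the others.

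Messenger RNA was sequenced from bone marrow-derived mast cells of wild-type C57BL/6 mice, in 3 groups of 3 libraries. Every group came from marrow cultured for at least 4 weeks in medium of which 30% had been conditioned by WEHI-3 cells, which secrete interleukin 3. Control cells were labelled as untreated. BSA cells had been loaded with IgE against the hapten dinitrophenyl and then given that hapten on serum albumin, and Taxinine cells had in addition received taxinine, a taxane diterpenoid of yew, for 1 h before the antigen. The comparison of BSA with Control therefore does not separate the IgE loading from the crosslinking of its receptor. The labels give no taxinine dose, no antigen exposure time and no vehicle, and cells with taxinine but no antigen were not analysed here. The samples of a group are called biological replicates without mention of separate animals or cultures, so the p-values reflect how much these particular samples vary, and that variation may be technical.

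Total counts ranged from 8975371 in Taxinine replicate 1 to 14116976 in Control replicate 2, and a limit of 3 counts in 1 library lay between 0.192 and 0.347 CPM (counts relative to a common library total, itself adjusted with TMM factors). Such limits cover counting error only. All 16 mast cell markers were present, and their sum was 58016 to 59657 CPM in Control, 63896 to 66114 in BSA and 63713 to 65140 with taxinine, which put it higher in the activated libraries without overlap. With plain library totals the order turned, to 64007 to 65751, 60529 to 62182 and 61232 to 62345 CPM. Its part in the differences from Control was not tested. By contrast, 3 of 11 neutrophil markers and 4 of 12 lymphocyte markers were in the table, at sums of at most 4.86 and 4.48 CPM. Macrophage markers (11 of 12, without C1qa) summed to 143 to 147 CPM in the Control libraries, 152 to 166 with BSA and 130 to 139 with Taxinine. The 6 basophil markers summed to between 1823 and 1876 CPM in Control, 1822 and 1910 in BSA and 1696 and 1730 with taxinine. For the 6 listed erythroid and megakaryocyte markers of 10, the sums were 1706 to 1764, 1696 to 1807 and 1632 to 1679 CPM in the same order. The basophil sums and the erythroid and megakaryocyte sums rest largely on few genes. In mean CPM, Itga2b alone stood at 1696, 1711 and 1623. The haemoglobin gene Hbb-bt stood at 32.8, 37.8 and 32.7, while Klf1 (0.388, 0.219 and 0.218) and Alas2 (0.173, 0.143 and 0.300) were near the counting limit. Of the basophil markers, Cd200r3 stood at 770, 699 and 655 CPM and Cd200r4 at 480, 500 and 462. In such bulk libraries, fewer cells expressing a gene and less of its RNA in each cell cannot be told apart.

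The promoter table of RefSeq (build GRCm38.p6), which gives 250 bases before to 50 after each gene's start, held 9 of the 10 members. Sequence motifs of transcription factors that respond to receptor signals were searched on both strands in these windows. TGACGTCA, the full cyclic AMP response element, was found in 1.79% of all 32851 promoters and in 2 of the 9 members, 1 time in Dusp1 and 2 times in Dusp8. The serum response (CArG) motif, which was in 1.63% of all promoters, was found 2 times in Dusp5, at 82 and 72 bases before the start and with no base between the matches. Stretches from 250 to 51 bases before the start are shown, 5′ to 3′, for the 3 induced members that hold these motifs and for Dusp7, which fell after antigen. Dusp7 held none of the motifs searched, and neither did Dusp6 and Dusp10, which rose, or Dusp14. Capitals mark TGACGTCA in Dusp1 and Dusp8 and the adjacent serum response matches in Dusp5.
Dusp1 (chr17:26508523-26508722, minus strand): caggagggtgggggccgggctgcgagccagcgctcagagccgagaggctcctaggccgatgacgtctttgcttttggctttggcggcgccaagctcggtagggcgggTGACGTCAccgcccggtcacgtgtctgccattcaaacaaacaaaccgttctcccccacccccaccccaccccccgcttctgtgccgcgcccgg
Dusp5 (chr19:53528895-53529094, plus strand): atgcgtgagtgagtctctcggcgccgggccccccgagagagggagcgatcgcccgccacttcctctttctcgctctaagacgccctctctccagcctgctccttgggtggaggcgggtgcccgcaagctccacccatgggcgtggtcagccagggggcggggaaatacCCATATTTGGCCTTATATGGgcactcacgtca
Dusp8 (chr7:142095335-142095534, minus strand): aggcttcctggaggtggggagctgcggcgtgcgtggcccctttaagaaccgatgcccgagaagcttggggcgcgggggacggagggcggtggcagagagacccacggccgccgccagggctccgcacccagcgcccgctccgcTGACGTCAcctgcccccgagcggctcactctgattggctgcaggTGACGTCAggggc
Dusp7 (chr9:106368382-106368581, plus strand): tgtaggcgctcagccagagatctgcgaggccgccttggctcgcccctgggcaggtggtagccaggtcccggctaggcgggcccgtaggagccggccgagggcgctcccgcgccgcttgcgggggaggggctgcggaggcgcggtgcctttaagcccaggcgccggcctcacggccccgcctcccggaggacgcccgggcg
In the GENCODE M21 annotation none of these bases is exonic for the member itself. The Dusp5 and Dusp7 stretches lie upstream of the gene model, and those of Dusp1 and Dusp8 lie in an intron of a longer transcript. The shorter letters TGACG, part of the full element on either strand, were in 20.8% of all promoters and in 5 members (Dusp1, Dusp2, Dusp5, Dusp8 and Dusp16). An NF-kB motif (9.38% of all) was found in Dusp2, Dusp5 and Dusp16, the early growth response motif GCGNGGGCG (5.55%) in Dusp2 and Dusp16, and CACGTG (7.15%) in Dusp1 and Dusp2. The AP-1 letters TGANTCA were in 7.81% of all promoters, the ETS letters CCGGAAG in 8.86% and the NFAT letters GGAAAA in 23.4%, and each was in 0 of the 9 members' windows. The members' stretches from 250 to 51 bases before the start held 58% to 77.5% G and C. The median over all full windows was 52.7%, so the shares of all promoters are not matched for base content. These are matches of letters in a short window and not measured binding sites.

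Levels of different genes were compared per length, as CPM per kilobase of annotated exon. Dusp6 and Dusp4 were the most abundant members in every group, and the summed level of the family was higher in both groups given antigen. The sum was 74.1, 73.8 and 73.6 CPM per kilobase in Control replicates 1 to 3, 182, 175 and 181 in BSA and 170, 168 and 170 with taxinine. No group overlapped another in this sum. Among untreated cells the order of mean levels was Dusp6 (28.5 ± 1.09, SD, n = 3), Dusp4 (20.6 ± 0.786), Dusp5 (8.03 ± 0.578), Dusp10 (5.68 ± 0.258), Dusp7 (4.69 ± 0.331), Dusp1 (3.88 ± 0.325) and Dusp16 (1.89 ± 0.177 CPM per kilobase). Neighbours in that order down to Dusp16 had separate ranges, while Dusp2 (0.227), Dusp14 (0.180) and Dusp8 (0.134), the lowest 3, overlapped among themselves. When the longest transcript replaced the merged exons as the length, Dusp1 and Dusp7 exchanged places in Control.

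After antigen the order was Dusp6 (79.9 ± 2.16), Dusp4 (39.9 ± 1.18), Dusp5 (24.3 ± 0.346), Dusp1 (15.5 ± 0.943), Dusp10 (10.8 ± 0.579), Dusp16 (4.73 ± 0.348), Dusp7 (2.51 ± 0.255) and Dusp8 (1.07 ± 0.0775 CPM per kilobase), with Dusp2 (0.446) and Dusp14 (0.401) last and overlapping. Dusp1 moved from rank 6 to rank 4 and Dusp7 from rank 5 to rank 7. With taxinine the order was the same as in BSA, and the ranges of Dusp8 (0.793), Dusp2 (0.554) and Dusp14 (0.524) overlapped. As a share of the family's sum, Dusp6 made up 38.6% ± 1.57 in Control, 44.5% ± 0.392 in BSA and 42.8% ± 2.32 in Taxinine. Dusp4 gave 27.9% ± 0.986, 22.2% ± 0.807 and 22.0% ± 0.733 in the same order. The share of Dusp5 was 10.9% ± 0.762, 13.5% ± 0.0836 and 16.0% ± 1.37, and that of Dusp7 was 6.35% ± 0.437, 1.40% ± 0.122 and 1.35% ± 0.0584. Every BSA library thus held a smaller share of Dusp7 than every Control library. The shares depend on the length used. With the longest transcript, Dusp4 gave 25.5%, 20.0% and 19.8% in the same order and Dusp5 9.95%, 12.2% and 14.5%, shifts larger than the SDs above.

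**Figure D1:**
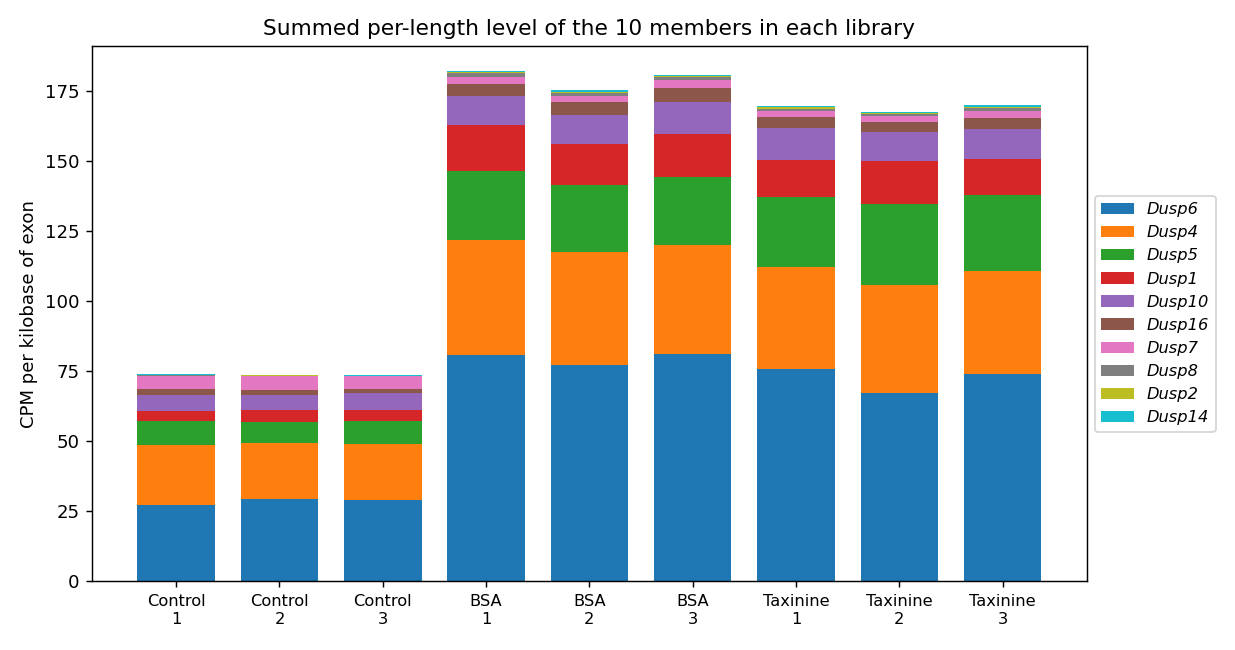
Summed level of the 10 phosphatase genes in each library, in CPM per kilobase of exon, stacked by gene. The Control bars stand near 74, the BSA bars between 175 and 182 and the Taxinine bars between 168 and 170, and Dusp6 (blue, lowest segment) is the largest segment in each bar.

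The first comparison, BSA against Control, asked what IgE and antigen did to each member. Transcripts of 7 of the 10 phosphatases rose (Dusp1, Dusp4, Dusp5, Dusp6, Dusp8, Dusp10 and Dusp16), Dusp7 fell, and Dusp2 and Dusp14 did not pass the test. Rises ran from 1.89-fold for Dusp10 to 7.88-fold for Dusp8. Calls rest on edgeR's quasi-likelihood test with an adjusted p below 0.05 over all 15109 genes, of which 34% were called, 16.2% higher and 17.8% lower. Against that background 7 of 10 members were called higher, and the 1 of 10 called lower is near the share of all genes. The groups did not overlap for 8 members that were higher and 1 that was lower, against 20.2% and 22.7% of all genes. The median log2 fold change of the 10 members was 1.21 and that of all genes was -0.00406. The members were chosen with earlier results of these data known, so these counts describe them and do not test them as a group.

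The largest rise among the nuclear enzymes was that of Dusp1 (chromosome 17, 26505590 to 26562128, minus strand), which encodes a phosphatase of p38, JNK and ERK and is known as a restraint on inflammatory gene expression. Dusp1 stood at 11.6, 13.7 and 13.2 CPM in Control replicates 1 to 3, at 54.5, 48.3 and 50.7 in BSA and at 43.5, 50.6 and 42.8 with taxinine. Each activated library was more than 40 CPM and no Control library reached 14, so the groups were far apart. The log2 fold change of BSA over Control was 1.99 ± 0.08 (SE; edgeR's quasi-likelihood test, adjusted p = 3.74e-24). Dusp5 (chromosome 19, 53529109 to 53542431, plus strand), which encodes an ERK-specific enzyme that also holds ERK in the nucleus, gave 21.3, 18.4 and 19.9 CPM in Control, 60.7, 59.0 and 60.3 in BSA and 61.3, 72.0 and 67.6 with taxinine. It rose by 1.59 ± 0.07 (adjusted p = 5.60e-23). The BSA libraries lay within 2 CPM of each other, and the 3 Taxinine libraries were all above them. An antisense gene that was not in the table overlaps 22.1% of the Dusp5 exon bases, and whether counting used strand is not given in the sources used here.

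Dusp4 (chromosome 8, 34807297 to 34819894, plus strand), a nuclear phosphatase of ERK and JNK, started from a higher level: 58.9, 55.0 and 55.4 CPM in Control, 112, 110 and 106 in BSA and 100, 105 and 100 with taxinine. Its log2 rise after antigen was 0.95 ± 0.05 (edgeR's quasi-likelihood test, adjusted p = 1.69e-19), with every BSA library above every Control library. Dusp2 (chromosome 2, 127336159 to 127338376, plus strand), first described as an activation gene of lymphocytes, was close to the counting limit, with 6, 9 and 6 counts in Control, 14, 9 and 10 in BSA and 16, 6 and 12 with taxinine. In CPM these were 0.397, 0.576 and 0.393, then 1.06, 0.709 and 0.909, then 1.85, 0.570 and 0.907. The BSA values lay above the Control values without overlap, but the log2 difference of 0.96 ± 0.46 did not pass the test (adjusted p = 0.106). Its 95% interval, which takes no account of the number of genes tested, ran from 0.03 to 1.88.

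The cytoplasmic, ERK-selective pair among the 10 members moved in opposite directions. Dusp6 (chromosome 10, 99263231 to 99267489, plus strand), a classical target gene of ERK signalling, gave 85.5, 92.0 and 90.6 CPM in Control, 254, 242 and 255 in BSA and 238, 211 and 232 with taxinine, a log2 rise after antigen of 1.48 ± 0.05 (edgeR's quasi-likelihood test, adjusted p = 1.35e-27). Dusp7 (chromosome 9, 106368632 to 106375724, plus strand), its close relative, gave 16.0, 16.7 and 14.5 CPM in Control, 8.43, 7.57 and 9.28 in BSA and 7.64, 7.32 and 8.08 with taxinine. All 6 activated libraries were below the lowest Control library, and the log2 change after antigen was -0.91 ± 0.11 (adjusted p = 3.47e-09). Dusp7 was the only 1 of the 10 members called lower in any comparison with Control.

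All 3 members with a preference for JNK and p38 rose. Dusp8 (chromosome 7, 142079490 to 142095843, minus strand), best known from brain and heart, was nearly silent at rest, with 14, 5 and 11 counts in Control against 74, 62 and 56 in BSA and 24, 37 and 70 with taxinine. These were 0.925, 0.320 and 0.720 CPM in Control, 5.62, 4.89 and 5.09 in BSA and 2.78, 3.52 and 5.29 with taxinine. Its log2 fold change of 2.98 ± 0.27 was the largest of the 10 members (edgeR's quasi-likelihood test, adjusted p = 2.67e-12). Its standard error was also the largest of the 8 called members. Dusp16 (chromosome 6, 134715468 to 134792625, minus strand), a JNK phosphatase that shuttles between nucleus and cytoplasm, gave 16.0, 15.0 and 13.3 CPM in Control, 33.9, 37.4 and 39.3 in BSA and 29.9, 27.5 and 31.0 with taxinine. The 3 groups did not overlap, and BSA stood 1.32 ± 0.08 above Control on the log2 scale (adjusted p = 1.89e-17). Dusp10 (chromosome 1, 184013302 to 184075636, plus strand), a phosphatase of p38 and JNK with a role in innate and adaptive immune responses, gave 17.1, 16.6 and 18.1 CPM in Control, 31.9, 31.5 and 34.7 in BSA and 35.2, 31.4 and 32.2 with taxinine. Its rise of 0.92 ± 0.08 (adjusted p = 3.10e-13) brought BSA to 1.89 times Control.

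The atypical member Dusp14 (chromosome 11, 84048041 to 84069261, minus strand) had 10, 3 and 3 counts in Control, 4, 12 and 12 in BSA and 4, 13 and 18 with taxinine. Replicate 1 was the highest Control library and the lowest library in each activated group, and the groups overlapped. The log2 difference of BSA from Control was 1.11 ± 0.54 (edgeR's quasi-likelihood test, adjusted p = 0.113). It passed the test without Control replicate 1 (1.92, adjusted p = 0.0191) or without BSA replicate 1 (1.52, adjusted p = 0.0326), so single libraries of a few counts decided this call. The 8 called members kept their direction and their call under all 18 alternatives, including scaling by total counts, which moved the median of all genes to -0.23 and that of the members to 0.99.

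**Figure D2:**
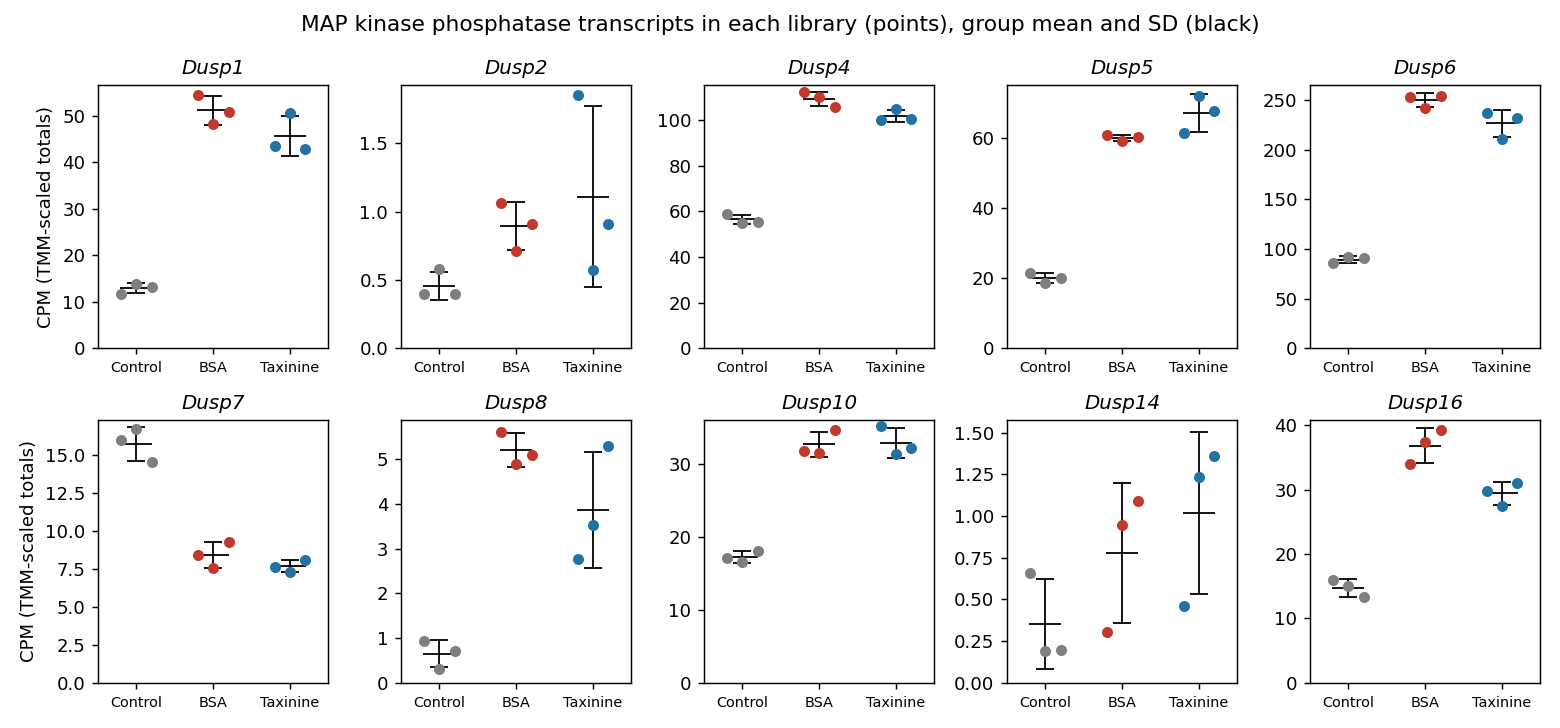
Level of each phosphatase gene in CPM (linear axis from 0, scale differing between panels) in the 3 Control (grey), 3 BSA (red) and 3 Taxinine (blue) libraries, with the group mean and SD in black. Dusp7 is the panel in which both activated groups lie below Control, and Dusp16 is 1 of the panels in which the 3 groups are separate.

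The second comparison, Taxinine against BSA, asked whether pretreatment changed the members' levels in cells given antigen; it shares the BSA libraries with the first. Dusp16 was the 1 member called, lower by 1.25-fold, and the other 9 did not pass the test. Its BSA libraries ranged from 33.9 to 39.3 CPM and its Taxinine libraries from 27.5 to 31.0, a log2 change of -0.32 ± 0.08 (95% interval -0.48 to -0.16; edgeR's quasi-likelihood test, adjusted p = 0.00703). The call was lost without BSA replicate 3 (-0.27, adjusted p = 0.0559) or without Taxinine replicate 2 (-0.27, adjusted p = 0.0805). Of all genes 6.98% were called in this comparison, 2.86% higher and 4.12% lower, so 0 members called higher and 1 of 10 called lower is near the background. Called lower with taxinine were also 2 of 11 macrophage, 1 of 6 basophil and 2 of 16 mast cell markers, and 0 of these were called higher. Lyz2 of macrophages fell from 21.8 ± 1.78 to 15.0 ± 1.42 CPM with taxinine, Cx3cr1 from 66.4 ± 2.85 to 52.9 ± 2.73, and Mcpt8 of basophils from 91.8 ± 2.98 to 71.8 ± 4.33. In Control, Lyz2 stood at 14.6 ± 0.780 CPM and Cx3cr1 at 68.1 ± 3.23. Markers not called went both ways in mean CPM. From BSA to Taxinine, Csf1r (0.869 to 1.02), Fcgr1 (0.538 to 0.777) and Itga2 (0.297 to 0.432) were higher, while Adgre1 (49.8 to 47.5) and Cd68 (17.1 to 15.0) were lower. The part of these markers in the Dusp16 difference was not tested.

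The remaining members did not pass the test, and their intervals differed widely in width. Dusp6 was lower in each Taxinine library than in each BSA library, by -0.14 on the log2 scale (95% interval -0.24 to -0.05), and narrowly missed the threshold (edgeR's quasi-likelihood test, adjusted p = 0.0542). It passed with relative log expression factors (adjusted p = 0.0490), with upper-quartile factors (0.0398), with only the groups compared in the fit (0.0363), and without Control replicate 1 (0.0387), Control replicate 2 (0.0313) or BSA replicate 2 (0.0318). Dusp4 did not overlap between the groups either, at -0.10 (-0.21 to -0.00076, adjusted p = 0.248). Dusp1 gave -0.17 (-0.31 to -0.03, adjusted p = 0.155), with Taxinine replicate 2 inside the BSA range. Dusp5 was the 1 member whose Taxinine libraries were all above its BSA libraries, by 0.16 (0.04 to 0.29, adjusted p = 0.108). In all, 1 member was higher and 3 were lower without overlap, against 11.5% and 12.4% of all genes.

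Dusp8 gave -0.38 (-0.79 to 0.03, edgeR's quasi-likelihood test, adjusted p = 0.302): Taxinine replicates 1 and 2 were below the BSA range and replicate 3 was inside it. Dusp10 differed by 0.0059 (-0.15 to 0.16, adjusted p = 0.980), with overlapping groups. Dusp7 gave -0.12 (-0.39 to 0.14, adjusted p = 0.677). For the lowly counted Dusp2 (0.24, -0.60 to 1.09, adjusted p = 0.813) and Dusp14 (0.48, -0.46 to 1.42, adjusted p = 0.635) the intervals span both directions widely, and a difference was not detectable at this depth. Without Taxinine replicate 1, Dusp2 came out at -0.24 instead.

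**Figure D3:**
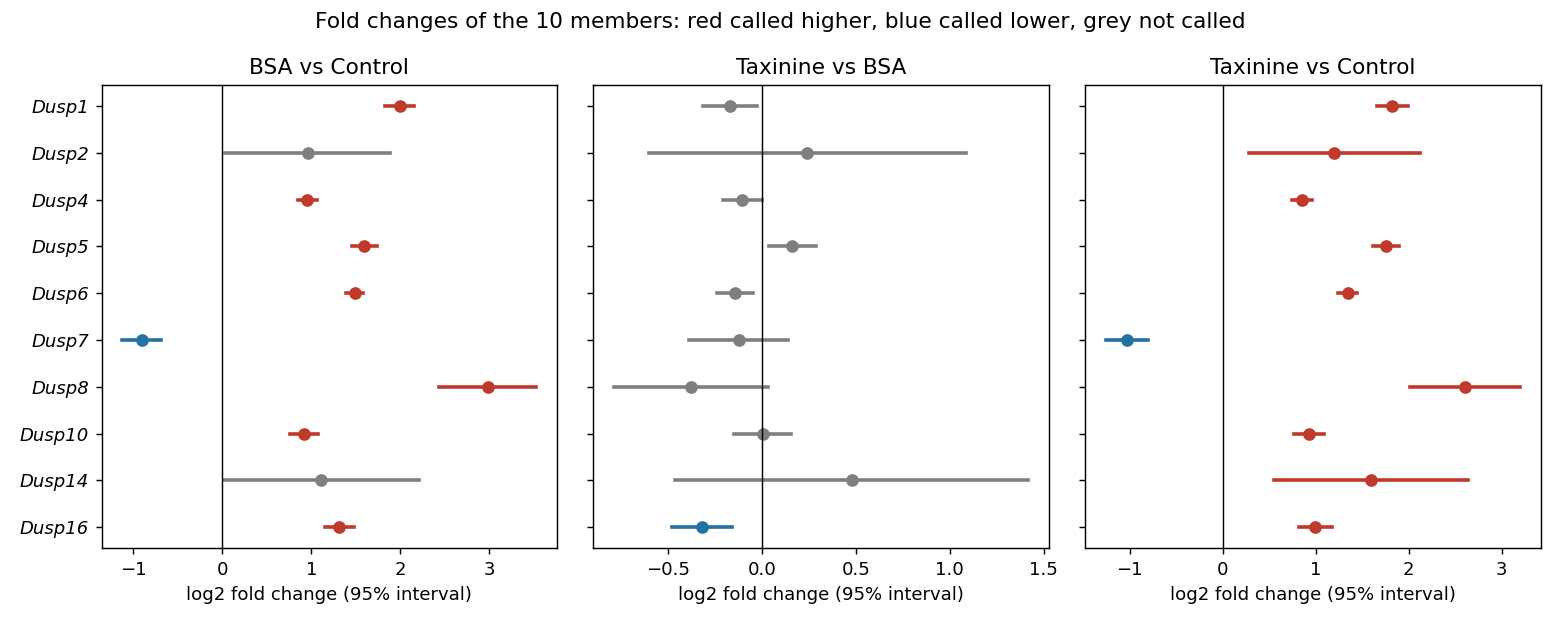
Log2 fold change of each phosphatase gene with its 95% interval in the 3 comparisons, red where called higher, blue where called lower and grey where not called; the horizontal scale differs between panels. In the middle panel Dusp16 (-0.32) is the 1 called gene, while the left and right panels each show Dusp7 below 0 and the called rises above it.

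The third comparison, Taxinine against Control, shares its libraries with the first and second and is not independent of them. Dusp1, Dusp2, Dusp4, Dusp5, Dusp6, Dusp8, Dusp10, Dusp14 and Dusp16 were higher in taxinine-pretreated, activated cells than in untreated cells, and Dusp7 was lower. These 9 and 1 calls stand against 33.1% of all genes called, 15.9% higher and 17.2% lower. The log2 fold changes were 1.82 for Dusp1, 0.85 for Dusp4, 1.76 for Dusp5, 1.34 for Dusp6, -1.03 for Dusp7, 2.60 for Dusp8, 0.92 for Dusp10 and 1.00 for Dusp16. Those 8 members did not overlap between the groups, 7 higher and 1 lower, against 20.9% and 22.8% of all genes. Dusp2 (1.20, adjusted p = 0.0376 in edgeR's quasi-likelihood test) and Dusp14 (1.59, adjusted p = 0.0142) did overlap. Dusp2 lost the call with total count scaling (adjusted p = 0.0663), with DESeq2 (0.0715), with limma on log2(CPM + 0.25) (0.0594) and without Control replicate 1 (0.0880), Control replicate 3 (0.0998) or Taxinine replicate 1 (0.324). Dusp14 lost it without Control replicate 2 (0.0634), Control replicate 3 (0.0745), Taxinine replicate 2 (0.0631) or Taxinine replicate 3 (0.119).

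To put the 3 groups on 1 scale, the difference of Taxinine from Control was divided by that of BSA from Control, in mean CPM, for the 8 members that antigen changed. Both differences share the Control libraries, so the ratio is a description without a test. For Dusp16, 66.4% of the antigen-induced difference was present with taxinine, and for Dusp8 70.6%. Dusp1 and Dusp6 kept 85.5% each and Dusp4 85.7%. Dusp10 stood at 101.3%, Dusp7, whose difference is a loss, at 110%, and Dusp5 at 117%. Dusp5 and Dusp16 thus lay at opposite ends of the induced members. Substrate classes were mixed between them, with Dusp10, which prefers JNK and p38, above Dusp6, which prefers ERK.

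For each member called in the first or second comparison, the 3 genes with the most similar pattern were listed, by the Euclidean distance between mean-centred log2(CPM + 1) values over the 9 libraries. Dusp6 lay nearest to Tnfaip3 (distance 0.147), the ubiquitin-editing inhibitor of NF-kB signalling, which went from 163 CPM in Control to 444.5 in BSA and 402 with taxinine. Osgin2 and Btg1, an antiproliferative gene, followed. Dusp4 lay nearest to Zbtb21 (0.0903), Tmem64 and Map2k3, a kinase that activates p38, which went from 233 to 436.5 and 419 CPM. For Dusp5 the nearest were Pcna (0.240), the DNA polymerase clamp, the tyrosine kinase gene Fes and the cell cycle inhibitor gene Cdkn1a. Pcna went from 303 CPM to 906 and 976, and Fes from 179 to 531 and 616. These genes were chosen for their likeness over the same libraries, so their levels are a description and were given no test.

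Dusp16 was nearest to Casp4 (0.259), an inflammatory caspase, Tnip3, an NF-kB inhibitor, and Sqstm1, an autophagy receptor. Casp4 stood at 34.1, 81.3 and 71.1 CPM in Control, BSA and Taxinine, and Tnip3 at 16.9, 44.6 and 33.9. Dusp1 was nearest to the kinase gene Sgk1 (0.287), Fam107b and Serpina3f, Dusp10 to Tnfaip8 (0.184), the splicing factor gene Tra2b and Morf4l2, and Dusp7, among genes that fell, to Izumo4 (0.254), the uridine-cytidine kinase gene Uck1 and Bmf. Dusp8 had the least close neighbours, Fam110a (0.576), the activation marker Cd69 and Frmd4b. Of pairs within the family, Dusp4 and Dusp10 were the most alike (0.290) and Dusp1 and Dusp7 the least (3.87). All these distances rest on the same 9 libraries in 3 groups.

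Around the 10 members, the rest of the pathway was described from lists written with earlier results of these data known. With TMM factors, their counts after antigen are to be read against the 16.2% of all genes called higher and 17.8% called lower. Those with taxinine are to be read against 2.86% and 4.12%. The balance of rises and falls after antigen depended on the scaling for most lists. Total count scaling, which moved the median of all genes to -0.23, gave the second pair of counts in each sentence. Under it 1081 of the 15109 genes were called higher and 6896 lower, against 2450 and 2694 with TMM factors. The second pairs are to be read against that background, in which falls far outnumber rises. Of 16 other DUSP genes, 10 were in the table, 2 rose after antigen and 3 fell (2 and 5 with total counts, 2 and 1 with DESeq2), near the shares of all genes, with a median log2 fold change of -0.19. Dusp18, an atypical phosphatase, rose from 14.2 ± 0.675 to 112 ± 7.55 CPM (2.98 ± 0.07) and was lower with taxinine, at 83.9 ± 1.94 CPM (-0.42 ± 0.05; edgeR's quasi-likelihood test, adjusted p = 4.48e-07). Dusp3, an atypical phosphatase of ERK and JNK, rose by 0.58 ± 0.05, and Dusp12 fell by 0.99 on the log2 scale. Of 8 measured phosphatases of other families that act on MAP kinases or their pathways, 1 rose and 2 fell (1 and 5 with total counts; median 0.04). The catalytic subunit gene Ppp2ca rose by 0.53 ± 0.04, while Ppm1d (-0.24 ± 0.07) and the haematopoietic tyrosine phosphatase gene Ptpn7 (-0.13 ± 0.04) fell. Ptpn7 was again lower with taxinine (-0.16 ± 0.04), and both Ptpn7 calls were lost in fits without some single libraries. The Ppm1d call was lost without BSA replicate 1 (-0.20, adjusted p = 0.0515).

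Among the kinases that these phosphatases counter, none of the 12 MAP kinases or 7 MAP kinase kinases in the table was called with taxinine. Of the MAP kinases, 3 rose after antigen and 1 fell (1 and 5 with total counts; median -0.12). The atypical Mapk6 rose by 0.70 ± 0.04, and Mapk7 (ERK5) changed by -0.82 ± 0.12. Of the MAP kinase kinases, 2 rose and 1 fell (1 and 3 with total counts; median 0.09). Map2k3 rose by 0.90 ± 0.04, Map2k7, which activates JNK, changed by -0.30 ± 0.06, and Map2k5 rose by 0.20 ± 0.07 but came out at -0.03 under total count scaling. The Map2k5 call was also lost with upper-quartile factors (adjusted p = 0.0675), with DESeq2 (0.0717) and without any 1 of 5 libraries (0.0551 to 0.111). Among 16 measured MAP3K and RAF kinases, 7 rose and 3 fell (3 and 4 with total counts; median 0.14). Map3k8, the kinase that links Toll-like and TNF receptor signals to ERK, rose from 16.7 ± 1.76 to 129 ± 9.49 CPM (2.95 ± 0.07). With taxinine it was lower, at 102 ± 2.79 CPM (-0.33 ± 0.06; edgeR's quasi-likelihood test, adjusted p = 5.62e-05), the 1 call of this list in that comparison. Map3k11 (0.69 ± 0.05) and Map3k2 (0.42 ± 0.06) rose as well.

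Of 12 measured RAS genes and exchange factors, 1 rose after antigen and 0 fell (1 and 5 with total counts), with a median of -0.01. Rras2 was the 1 of them called with taxinine, at 5.75 ± 0.516 CPM in BSA and 8.44 ± 0.959 in Taxinine (0.54 ± 0.16). That call was lost with DESeq2 (adjusted p = 0.0645) and without BSA replicate 2 (0.0834), BSA replicate 3 (0.0622), Taxinine replicate 1 (0.131) or Taxinine replicate 3 (0.0672). Of 8 scaffolds, 3 rose after antigen and 1 fell (0 and 5 with total counts; median 0.02), among them Mapk8ip3, a JNK scaffold (-0.31 ± 0.05), Lamtor3 (0.31 ± 0.05, not called under total count scaling) and Iqgap1 (0.14 ± 0.04, but -0.09 under that scaling). The RAF scaffold gene Ksr1 (-0.28 ± 0.06) and Arrb2 (-0.19 ± 0.05) were called lower with taxinine, Arrb2 not without BSA replicate 3 (adjusted p = 0.169), Taxinine replicate 1 (0.0645) or Taxinine replicate 2 (0.0873). Of 10 kinases activated by MAP kinases, 4 rose after antigen and 1 fell (3 and 5 with total counts; median 0.04). Mapkapk2, the p38-activated kinase that stabilises cytokine transcripts, rose by 1.05 ± 0.04 and Mapkapk3 by 0.43 ± 0.05. Mknk2, a kinase of the translation factor eIF4E, rose by 0.32 ± 0.04 after antigen (not called under total count scaling) and by a further 0.40 ± 0.04 with taxinine (edgeR's quasi-likelihood test, adjusted p = 2.71e-09).

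Transcription factors phosphorylated by MAP kinases had 7 of 15 higher and 2 lower after antigen (6 and 7 with total counts; median 0.09), and 2 higher and 2 lower with taxinine. Jun (2.42 ± 0.04), Fos (3.14 ± 0.06) and Jund (1.99 ± 0.05), subunits of AP-1, rose after antigen, and with taxinine Jun was higher (0.18 ± 0.04) while Jund (-0.40 ± 0.05) and Fos (-0.19 ± 0.05) were lower. The Fos call was lost with both limma fits (adjusted p = 0.0578 and 0.0548) and without BSA replicate 1 (0.152) or Taxinine replicate 3 (0.0815). Transcripts known to be induced by ERK had 16 of 24 higher and 1 lower after antigen (16 and 2 with total counts), with a median of 1.79 beside -0.00406 for all genes. Egr2 (6.93 ± 0.06), Egr3 (6.12 ± 0.06) and Fosb (5.42 ± 0.05) led the rises, and Myc was the 1 that fell (-1.42). With taxinine, where 2.86% of all genes were called higher and 4.12% lower, 0 of the 24 were called higher and 8 lower, among them the cytokine gene Lif (-0.48 ± 0.05), Emp1 (-0.28 ± 0.04) and Ier3 (-0.26 ± 0.04; adjusted p = 1.69e-08, 8.55e-06 and 2.95e-05 by edgeR's quasi-likelihood test). The median of that list was -0.09 and that of all genes 0.0021. Under total count scaling 1 of the 24 was called higher and 7 lower, and with DESeq2 0 and 6. Fos and Myc stand in both lists.

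**Figure D4:**
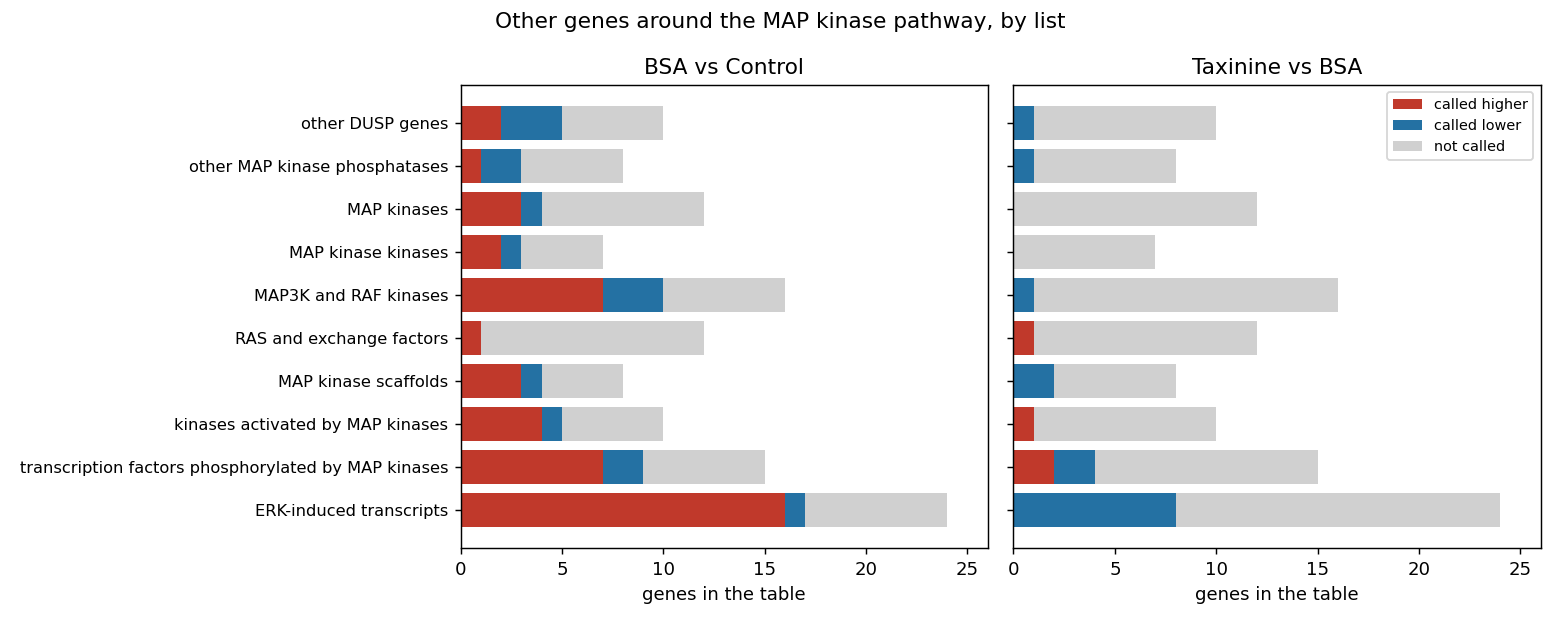
Number of genes in the table from each list around the MAP kinase pathway that were called higher (red), called lower (blue) or not called (grey), in BSA against Control (left) and Taxinine against BSA (right). ERK-induced transcripts show 16 higher and 1 lower on the left and 8 lower on the right.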

How the data were processed

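Per the labels' protocols, messenger RNA libraries (TruSeq Stranded, polyA) from 9 mast cell samples were read as pairs of 101 bases. Per the submitters' processing notes, STAR 2.7.0f, limma 3.11 and the builds mm10 and GRCm38 were used. Which annotation and counting program were used, and with what strand setting, is not given in the sources used here. Whole-number counts were deposited by the authors and used here as unscaled, because their totals differ between libraries. The log2 values deposited beside them equal log2(CPM + 1) with plain totals to within 5e-05. Every gene of the deposited tables has counts in at least 4 libraries.

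From the counts, 1 fit of edgeR 4.0.16's quasi-likelihood test (R 4.3.3) over all 9 libraries, with TMM factors, tested 15109 genes, adjusted by Benjamini-Hochberg and called at an adjusted p under 0.05. Standard errors were derived from the log2 fold change and its F statistic. The biological coefficient of variation was 3.9%, total counts were 8975371 to 14116976, and no replicates were duplicates. Per-length levels and coordinates used the exons of GENCODE M21 (GRCm38). The fit was tested on simulated data in which 200 genes had been changed. These were drawn from genes above a minimum mean count, so the simulation did not cover changes in genes with fewer counts.

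Alternatives were total count, relative log expression and upper-quartile scaling, DESeq2 1.42.0, limma 3.58.1 on the deposited values and on log2(CPM + 0.25), a filter on low counts, only the groups compared, the replicate number as a term, the longest transcript as length, and leaving out each library. Named genes were the 10 members, up to 3 called genes with the smallest p per list and comparison, and the 3 genes nearest to each called member in pattern, predicted genes left out. Myc was named after its values were seen, and a few genes that the rule selects are not reported here. The members and lists were chosen with earlier results of these data known.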

Additional observations from a re-analysis of the deposited data

How the results depend on the processing

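The 8 members called in BSA against Control kept direction and call in all 18 alternatives. Genes called there numbered 5144, but 7977 when libraries were scaled by total counts, 7852 by limma on the log2 values as deposited and 7827 by limma on log2(CPM + 0.25). The share of higher calls was 47.6%, and 13.6% with each of these 3; for Taxinine against BSA it was 40.9% against 57.6%, 59.2% and 59.5%, and for Taxinine against Control 48.1% against 15%, 15.1% and 15.1%. Total count scaling shifted the median of all genes by -0.23 in BSA against Control. In Taxinine against BSA, 1055 genes were called, and 616 to 1281 without single libraries (659, 616 and 699 without Taxinine replicate 1, 2 and 3). Members called lower there numbered 1, but 2 with relative log expression factors, 2 with upper-quartile factors, 2 with only the groups compared, and 0 to 2 without single libraries. Reversed differences were small for Dusp10, at -0.00135 with upper-quartile factors and -0.0372 to 0.0484 without single libraries. Dusp2, at 0.243 with all libraries, ranged more widely, from -0.243 to 0.535 without single libraries. Map2k5 (-0.0288, -0.0269 and -0.0276) and Iqgap1 (-0.0869, -0.0868 and -0.0869) reversed in BSA against Control with total count scaling and the limma fits named above, in that order. The cause was not tested. With the replicate number as a block, the members called stayed at 7 higher and 1 lower, 0 and 1, and 9 and 1, and genes called numbered 5078, 1093 and 4972. Deviations of same-numbered libraries correlated between -0.262 and 0.154, over 0.1 in 2 of 9 pairs. Those of differently numbered libraries correlated between -0.29 and 0.309, over 0.1 in 4 of 18 pairs. No pairing by number was seen, but groups of 3 libraries cannot exclude it. Few counts limit Dusp2, Dusp8 and Dusp14.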
